A study of Homo sapiens with 6 samples.

Results

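The alkaline phosphatase ALPP and 9 other genes that standard pathway maps place around folate and pterin metabolism were examined after knockdown of YAP1. The 10 genes were ALPP, ALPL, GCH1, PTS, SPR, QDPR, FPGS, GGH, MOCS2 and AKR1B10, out of 60612 genes with a value. They were chosen by name with the difference between Sh-YAP1 and Sh-NC already known, so that their differences in that comparison are given as a description, without a test. Of the 10 genes, 9 averaged 0.5 FPKM or more across all 6 libraries and were among the 14770 genes analysed. ALPL was not.

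RNA was sequenced from MDA-MB-231, an established human cell line of triple-negative breast cancer, carrying either the control hairpin Sh-NC or a hairpin against YAP1, named Sh-YAP1. Each of the 2 groups held 3 libraries collected on day 3, and none of the cultures received a further treatment. The control cells were given as wild type. The study's methods describe transfected hairpins, its legends speak of stable expression, and the labels do not say whether the replicates of a group were separate cultures. The p-values below therefore measure the spread between these libraries, which may be technical. Expression was given as FPKM, fragments scaled to transcript length and to the mapped fragments of the library, which allows levels of different genes to be set side by side. A gene value was the sum over all transcripts of the gene. FPKM summed to between 467493 and 475116 per library, and read depth is unknown. YAP1 itself had 28.1, 26.2 and 22.9 FPKM with Sh-NC and 3.35, 2.67 and 2.58 FPKM with Sh-YAP1, a log2 difference of -2.79 (SE 0.12, adjusted p = 0.0018, limma). All 5 markers of mesenchymal breast cancer cells were present (VIM, CD44, AXL, CAV1 and EGFR). AXL (means 255.6 with Sh-NC and 200.3 FPKM with Sh-YAP1, adjusted p = 0.039, limma) was lower in every Sh-YAP1 library. So was CAV1 (337.6 and 231.3 FPKM, adjusted p = 0.126), and the other 3 markers overlapped between the groups. In bulk RNA, fewer cells that express a gene and less RNA of it per cell cannot be told apart.

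Alkaline phosphatases are zinc enzymes that remove phosphate groups, and most are held at the outer cell surface by a lipid anchor. ALPP encodes the placental form, ALPG the germ cell form, ALPI the intestinal form and ALPL the form of bone, liver and kidney. Pathway maps of folate synthesis list them for the removal of phosphate from dihydroneopterin triphosphate, the product of GCH1. In human cells this product serves tetrahydrobiopterin, which PTS and SPR complete and QDPR recycles after use by the aromatic amino acid hydroxylases. Folate comes from the diet. FPGS adds glutamates that retain it in the cell and GGH removes them. MOCS2 makes molybdopterin, a further pterin that carries molybdenum, and AKR1B10 is an aldo-keto reductase of retinal and other carbonyl compounds.

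ALPP occupies chromosome 2 of GRCh38 between 232378534 and 232382889 (plus strand, GENCODE 29). ALPG starts 24.0 kb and ALPI 73.2 kb beyond its end, both on the same strand. The 300 bases around each of the 3 starts (250 before and 50 after, RefSeq, GRCh38.p14) are shown because the genes differ in level although the sequences are close. They span chr2:232378501-232378800 for ALPP, chr2:232406594-232406893 for ALPG and chr2:232455903-232456202 for ALPI, all on the plus strand. For ALPP the RefSeq start lies beyond the GENCODE start of 232378534, so most of its window is inside the gene as GENCODE places it. Capitals mark the 2 stretches of at least 12 bases that all 3 share.
ALPP: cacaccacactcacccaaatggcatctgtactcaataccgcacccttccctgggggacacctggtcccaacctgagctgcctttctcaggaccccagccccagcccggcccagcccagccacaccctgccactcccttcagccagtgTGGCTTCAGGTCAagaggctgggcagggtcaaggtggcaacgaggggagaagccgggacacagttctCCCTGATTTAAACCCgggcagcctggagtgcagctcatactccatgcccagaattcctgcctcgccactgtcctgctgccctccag
ALPG: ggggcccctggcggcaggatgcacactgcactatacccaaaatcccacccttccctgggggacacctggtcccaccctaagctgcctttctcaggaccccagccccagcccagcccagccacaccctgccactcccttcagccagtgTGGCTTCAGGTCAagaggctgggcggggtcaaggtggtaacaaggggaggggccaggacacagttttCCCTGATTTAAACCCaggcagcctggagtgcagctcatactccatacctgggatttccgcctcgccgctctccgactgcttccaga
ALPI: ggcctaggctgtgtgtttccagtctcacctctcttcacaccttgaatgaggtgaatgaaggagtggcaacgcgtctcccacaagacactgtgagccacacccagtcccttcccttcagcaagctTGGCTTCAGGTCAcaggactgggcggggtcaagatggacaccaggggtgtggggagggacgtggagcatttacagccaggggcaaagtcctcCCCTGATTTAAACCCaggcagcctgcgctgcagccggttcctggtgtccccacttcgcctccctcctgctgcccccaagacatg
The windows of ALPP and ALPG were identical at 250 of 278 aligned bases (89.9%), and those of ALPP and ALPI at 185 of 262 (70.6%). The longest stretch common to all 3 windows was 15 bases. The ALPP window held 6 CG dinucleotides, an observed over expected ratio of 0.217, which placed it at the 23.7 percentile of 35116 human promoter windows.

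SPR was the member with the highest level, and its window is shown for comparison, with each CG dinucleotide in capitals (chr2:72887158-72887457, plus strand, GRCh38.p14).
SPR: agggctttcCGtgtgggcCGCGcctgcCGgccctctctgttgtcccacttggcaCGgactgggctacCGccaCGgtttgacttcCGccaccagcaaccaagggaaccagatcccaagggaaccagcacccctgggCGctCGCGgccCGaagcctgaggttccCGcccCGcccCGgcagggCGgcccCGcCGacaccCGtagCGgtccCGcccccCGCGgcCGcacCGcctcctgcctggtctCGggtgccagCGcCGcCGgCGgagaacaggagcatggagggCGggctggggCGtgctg
It held 32 CG dinucleotides, a ratio of 0.784 against a median of 0.579 over all windows. Windows were matched for 7 of the 10 genes (11 windows in all, with 3 each for ALPL and FPGS). In the windows of QDPR, PTS, MOCS2 and FPGS the ratio was between 0.809 and 0.931. In the 3 ALPL windows it was 0.433, 0.839 and 0.481. The motif CATTCC, which TEAD factors, the DNA-binding partners of YAP1, recognise, was searched on both strands and was in none of the 11 windows, while 14.0% of all windows held it. The AP-1 motif TGANTCA was also in none, against 7.71% of all windows. TATAAA, likewise on both strands, was in 1 of the 3 ALPL windows and in 11.5% of all windows. None of these motifs contains another. With so few windows, some of FPGS largely overlapping, nothing is read from these counts.

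ALPP expression was 6.37, 6.59 and 6.96 FPKM in the Sh-NC libraries and 2.73, 2.79 and 2.33 FPKM in the Sh-YAP1 libraries. Every Sh-YAP1 library was below every Sh-NC library, and the 3 values of each group lay close together. The means were 6.64 ± 0.298 FPKM (SD, n = 3) and 2.62 ± 0.250 FPKM, so that 39.4% of the control level was left. On the log2(FPKM + 1) scale, which understates changes of weakly expressed genes, the difference was -1.08 (SE 0.09). Of all genes analysed, 44 had a larger fall.

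Among the other phosphatases, ALPL was listed at 0 FPKM in all 6 libraries in each of its 7 transcript rows. ALPI was listed at 0 FPKM throughout, and ALPG at 0 FPKM except for 0.25 FPKM in Sh-NC replicate 3. The summed value of ALPP, ALPG and ALPI was 6.72 ± 0.436 FPKM with Sh-NC and 2.62 ± 0.250 FPKM with Sh-YAP1 (SD, n = 3), close to ALPP alone. Reads of near-identical genes can be divided between them. Of the 2872 stretches of 100 bases in the longest ALPP transcript, 379 (13.2%) also occur in ALPG and 0 in ALPI. An antisense gene (ENSG00000224516) overlaps 631 of the 3059 exon bases of ALPP and was listed at 0 FPKM in 5 libraries and 0.21 FPKM in Sh-NC replicate 3. Since no source says that strand was used in counting, reads of ALPP and of this gene cannot be told apart within the overlap (20.6% of the exon bases).

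**Figure D1:**
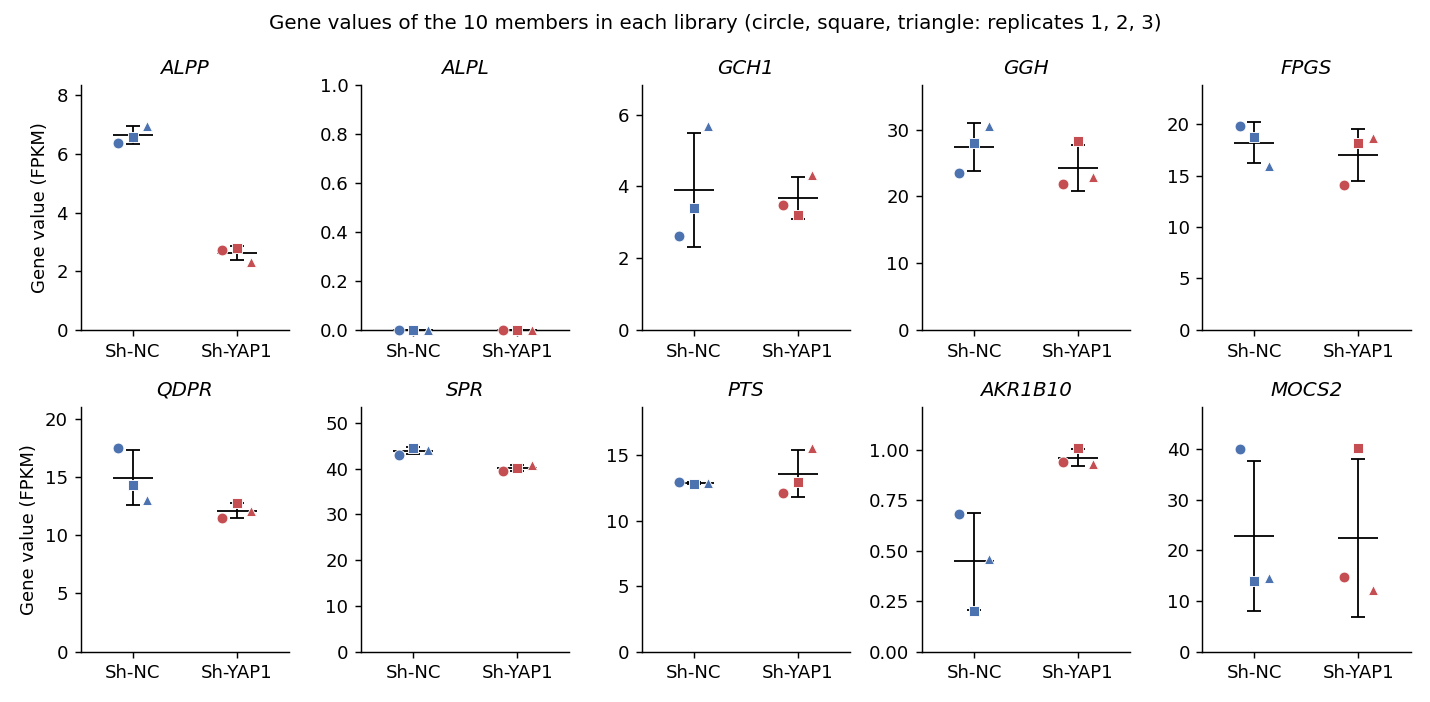
Gene values in FPKM (vertical axes, each starting at 0) of the 10 genes in the 3 Sh-NC and 3 Sh-YAP1 libraries, with the mean and SD in black. ALPP is the gene whose groups lie farthest apart, at 6.64 and 2.62 FPKM, while MOCS2 has 1 high library in each group.

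The lower ALPP value lay in a single transcript row. The files hold a value for each of the 3 ALPP transcripts but no transcript names, so the rows are numbered here by their mean. The first row, which held 81.0% of ALPP, was at 6.21, 5.78 and 5.80 FPKM with Sh-NC and at 2.29, 0.72 and 1.70 FPKM with Sh-YAP1. The rest of the gene was at 0.16, 0.81 and 1.16 FPKM with Sh-NC and at 0.44, 2.07 and 0.63 FPKM with Sh-YAP1. Its groups overlapped, and its means of 0.71 ± 0.507 and 1.05 ± 0.891 FPKM (SD, n = 3) had the opposite order, a log2 difference of 0.22. That order rested on Sh-YAP1 replicate 2, without which the log2 difference was -0.11. In Sh-YAP1 replicate 2 the first row held 25.8% of the gene and the second row 62.7%. In the other 5 libraries the first row held between 73.0% and 97.5%. The gene value of replicate 2, 2.79 FPKM, was near those of the other Sh-YAP1 libraries all the same.

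ALPP was measured in cells without the markers of the tissue it is named after. Of 6 markers of placental trophoblast, none reached a mean of 0.5 FPKM, and their summed level was between 0.02 and 0.11 FPKM in Sh-NC and between 0.01 and 0.04 FPKM in Sh-YAP1. The hormone subunit CGA and the trophoblast factor GCM1 were listed at 0 FPKM in every library. For ALPL, which marks osteoblasts, the bone factors SP7 and IBSP were likewise listed at 0 FPKM, while RUNX2 was the 1 of 4 osteoblast markers at or above 0.5 FPKM. The 4 leukocyte markers summed to at most 0.88 FPKM, and the 6 markers of luminal breast epithelium to between 7.78 and 11.5 FPKM. Of these 6, 3 averaged 0.5 FPKM or more (GATA3, FOXA1 and EPCAM).

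None of the genes around ALPP passed the test. Within 500 kb, 33 other genes had a value and 8 could be tested, with log2 differences between -0.28 and 0.52. The lowest were the pseudogene NRBF2P6 (-0.28, adjusted p = 0.654, limma) and EFHD1 (-0.26, adjusted p = 0.329). The highest was an antisense gene 198.1 kb away (ENSG00000237126), with means of 0.85 and 1.64 FPKM (0.52, adjusted p = 0.0552). DIS3L2, an RNA exonuclease gene 34.2 kb away, had 8.98 FPKM with Sh-NC and 10.5 FPKM with Sh-YAP1 (0.21, adjusted p = 0.214), and EIF4E2, which encodes a cap-binding protein, had 35.7 and 42.7 FPKM (0.25, adjusted p = 0.11). These last 3 genes were higher in every Sh-YAP1 library than in any Sh-NC library, beside 14.6% of all genes, and the other 5 tested neighbours overlapped between the groups.

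The 3 enzymes that build tetrahydrobiopterin showed small differences. GCH1, which commits GTP to the pathway, was at 2.63, 3.41 and 5.69 FPKM with Sh-NC and at 3.47, 3.21 and 4.33 FPKM with Sh-YAP1. The groups overlapped, with Sh-NC replicate 3 the highest (log2 difference -0.03, SE 0.23, and 0.22 without that library). PTS, which forms the next intermediate, was at 12.9, 12.8 and 12.9 FPKM with Sh-NC and at 12.2, 13.0 and 15.6 FPKM with Sh-YAP1. Its control libraries were nearly equal and lay within the range of the knockdown libraries (log2 difference 0.06, SE 0.10, and -0.03 without Sh-YAP1 replicate 3). SPR, sepiapterin reductase, was at 43.0, 44.6 and 44.1 FPKM with Sh-NC and at 39.4, 40.1 and 40.7 FPKM with Sh-YAP1. All its Sh-YAP1 libraries were below the Sh-NC libraries, but the means of 43.9 ± 0.802 and 40.1 ± 0.621 FPKM (SD, n = 3) differed by a log2 value of only -0.13 (SE 0.06). Summed over GCH1, PTS and SPR, the level was 60.7 ± 2.05 FPKM with Sh-NC and 57.3 ± 2.90 FPKM with Sh-YAP1.

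QDPR, which returns the oxidised cofactor to tetrahydrobiopterin, was at 17.6, 14.3 and 13.0 FPKM with Sh-NC and at 11.5, 12.8 and 12.1 FPKM with Sh-YAP1. The groups did not overlap, although Sh-NC replicate 3 and Sh-YAP1 replicate 2 lay only 0.22 FPKM apart. The log2 difference was -0.27 (SE 0.12), and -0.16 without Sh-NC replicate 1. It lay in 1 of 9 transcript rows, the third by mean, with 6.82, 2.70 and 1.52 FPKM in Sh-NC and 1.49, 0.23 and 0.22 FPKM in Sh-YAP1. Without that row QDPR was at 11.3 ± 0.49 FPKM with Sh-NC and 11.5 ± 1.31 FPKM with Sh-YAP1 (SD, n = 3), the groups overlapped, and the log2 difference was 0.02.

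The pair of enzymes that set the glutamate tail of folate overlapped between the groups. FPGS, which lengthens it, was at 19.9, 18.8 and 16.0 FPKM with Sh-NC and at 14.1, 18.2 and 18.7 FPKM with Sh-YAP1 (log2 difference -0.10, SE 0.13, and 0.02 without Sh-YAP1 replicate 1). GGH, the hydrolase that shortens it, was at 23.4, 28.0 and 30.6 FPKM with Sh-NC and at 21.8, 28.2 and 22.9 FPKM with Sh-YAP1 (log2 difference -0.16, SE 0.13, and between -0.27 and -0.08 with 1 library left out). The ratio of GGH to FPGS was 1.53 ± 0.368 and 1.44 ± 0.190 (SD, n = 3). The 2 genes were built differently: FPGS had 13 of 21 transcript rows averaging 0.1 FPKM or more, and 24.0% of its value in the largest, whereas the largest GGH row held 77.9%. That GGH row stayed between 17.9 and 21.3 FPKM in all libraries, and a second row was at 4.27 and 8.25 FPKM in Sh-NC replicates 2 and 3, at 9.21 FPKM in Sh-YAP1 replicate 2 and at most 0.28 FPKM in the other 3.

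MOCS2, whose transcripts encode both subunits of molybdopterin synthase, had the widest spread of the members. It was at 40.0, 13.9 and 14.6 FPKM with Sh-NC and at 14.8, 40.3 and 12.1 FPKM with Sh-YAP1. One library in each group, Sh-NC replicate 1 and Sh-YAP1 replicate 2, was at about 40 FPKM and the other 4 were between 12.1 and 14.8 FPKM. The log2 difference between the groups was -0.05 with an SE of 0.55, and between -0.56 (without Sh-YAP1 replicate 2) and 0.42 (without Sh-NC replicate 1) with 1 library left out, so that differences of the size seen for ALPP could not be resolved. The first of its transcript rows was at 37.4 and 36.9 FPKM in those libraries and between 3.89 and 7.53 FPKM in the others. The second row had the reverse pattern, with 0.53 and 1.03 FPKM in the same libraries and between 4.83 and 6.21 FPKM in the others. Without the first row MOCS2 was at 6.14 ± 3.04 FPKM with Sh-NC and 6.30 ± 2.52 FPKM with Sh-YAP1 (SD, n = 3).

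GCH1 showed a similar exchange between rows at a lower level. Its first row was at 0.05, 0 and 4.79 FPKM with Sh-NC and at 2.95, 1.99 and 0.50 FPKM with Sh-YAP1. The second row was at 1.05, 2.77 and 0.16 FPKM with Sh-NC and at 0.17, 0.27 and 2.30 FPKM with Sh-YAP1. In each library 1 of the 2 rows was high where the other was low, and neither row separated the groups. SPR had 99.6% of its value in 1 row, so that its gene value does not depend on such a division.

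**Figure D2:**
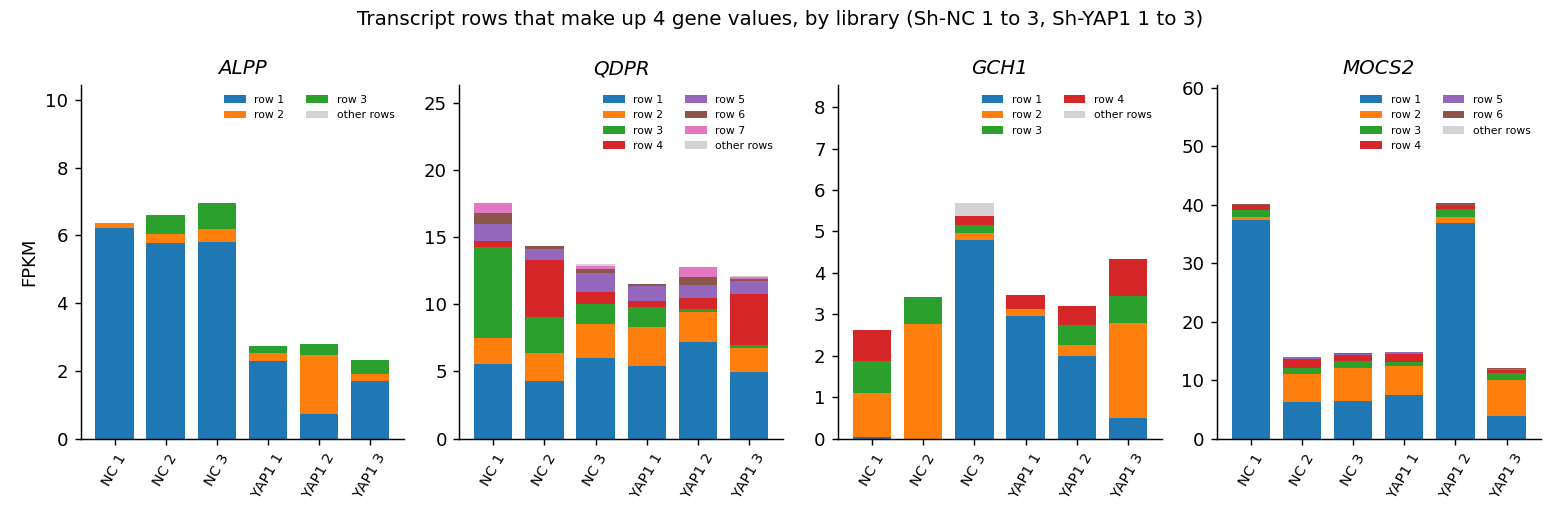
Stacked FPKM of the transcript rows of ALPP, QDPR, GCH1 and MOCS2 in the 3 Sh-NC (NC) and 3 Sh-YAP1 (YAP1) libraries, with rows numbered by their mean and those under a mean of 0.1 FPKM in grey. The first ALPP row was lower in every Sh-YAP1 library, whereas the high rows of GCH1 and MOCS2 changed from library to library within a group.

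AKR1B10 was the member whose Sh-YAP1 libraries all lay above its Sh-NC libraries. It was at 0.68, 0.20 and 0.46 FPKM with Sh-NC and at 0.94, 1.01 and 0.93 FPKM with Sh-YAP1, all of it in 1 of 4 transcript rows. The groups did not overlap, and the means were 0.447 ± 0.240 and 0.96 ± 0.0436 FPKM (SD, n = 3), a ratio of 2.15. The log2 difference was 0.45 (SE 0.15). With pseudocounts of 0.1 and 0.01 in place of 1 it was 1.06 and 1.25. The level was low, at the 5.57 percentile of the genes analysed, and with a Sh-NC mean below the filter of 0.5 FPKM the gene was analysed through its Sh-YAP1 libraries. Its relative AKR1B1, aldose reductase, had 280 ± 25.2 FPKM with Sh-NC and 282 ± 12.7 FPKM with Sh-YAP1 (SD, n = 3, log2 difference 0.01, adjusted p = 0.943, limma), a sign that turned with median centring and without replicate 3 of either group. AKR1B15, next to AKR1B10 on chromosome 7, was listed at 0 FPKM in every library. Of 1491 stretches of 100 bases in AKR1B10, 17 (1.14%) also occur in AKR1B15 and 0 in AKR1B1.

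The members kept nearly the same order of level in both groups. In Sh-NC the means descended from SPR through GGH, MOCS2, FPGS, QDPR, PTS, ALPP and GCH1 to AKR1B10 and ALPL. SPR lay above every other member in all libraries except for MOCS2 in Sh-YAP1 replicate 2, at 40.3 FPKM against 40.1 FPKM. In Sh-NC the values of MOCS2 overlapped with those of GGH, FPGS and QDPR, and those of FPGS with QDPR. In Sh-YAP1 MOCS2 overlapped with GGH, FPGS, QDPR and PTS, and PTS with FPGS and QDPR. ALPP was above GCH1 in every Sh-NC library (lowest 6.37, highest GCH1 value 5.69 FPKM) and below it in every Sh-YAP1 library (highest 2.79, lowest GCH1 value 3.21 FPKM). The ratio of SPR to ALPP was 6.62 ± 0.246 with Sh-NC and 15.4 ± 1.76 with Sh-YAP1 (SD, n = 3).

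The groups did not overlap for 4 of the 9 members analysed, 3 lower (ALPP, QDPR and SPR) and 1 higher (AKR1B10, which passed the filter only through its Sh-YAP1 libraries), beside 14.7% lower and 14.6% higher among all genes. The median log2 difference was -0.10 over the 9 members and -0.08 over the 8 apart from ALPP, and it was -0.001 over all genes. Since the members were picked from this comparison, nothing is read from these counts.

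**Figure D3:**
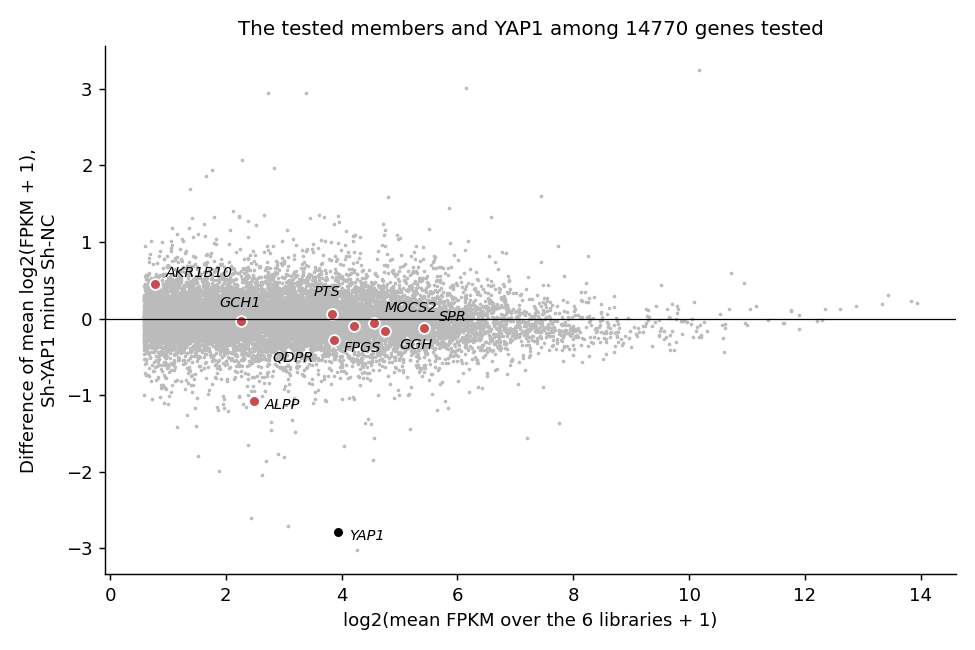
Difference of mean log2(FPKM + 1), Sh-YAP1 minus Sh-NC (vertical), against log2 of the mean FPKM + 1 (horizontal) for the 14770 genes analysed (grey), the 9 members (red) and YAP1 (black). ALPP at -1.08 lies at the lower edge of the cloud, and the other members lie between -0.27 and 0.45.

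The wider pathways were examined next, with the members left out, to ask whether genes of the same functions moved with ALPP. Of 75 genes in 7 lists, 55 could be tested, and none had an adjusted p under 0.05 (limma). Of all genes, 3.38% did, made up of 1.62% that were lower in Sh-YAP1 and 1.75% that were higher. At an unadjusted p under 0.05 there were 9 of the 55, 3 lower and 6 higher (16.4%, beside 21.9% of all genes). The median log2 difference was -0.02, with values between -0.45 and 0.54. The values of weakly expressed genes depended on the pseudocount of 1. With 0.1 and 0.01, SPP1 was at 1.40 and 1.70, AMT at 1.34 and 1.68 and NOS3 at -1.32 and -1.90, beside -1.31 and -1.34 for ALPP. In SPP1, AMT and NOS3 the mean of 1 group was below the filter of 0.5 FPKM. The groups did not overlap for 6 genes that were lower and 11 that were higher (30.9% of the 55, beside 29.4% of all genes).

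In the folate biosynthesis list 0 of 9 tested genes passed, with a median log2 difference of 0.01. At an unadjusted p under 0.05 (limma) there were 4 of the 9, 1 lower and 3 higher (44.4%, beside 21.9% of all genes). The groups did not overlap for 5 of them, 2 lower and 3 higher (55.6%, beside 29.4% of all genes). PCBD1, the dehydratase that precedes QDPR in recycling the pterin cofactor, was at 22.8, 28.1 and 25.0 FPKM with Sh-NC and at 19.0, 20.7 and 20.0 FPKM with Sh-YAP1. The groups did not overlap, and the log2 difference was -0.33 (SE 0.09, adjusted p = 0.111, limma).

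In folate one-carbon metabolism 0 of 20 tested genes passed, with a median of 0.04. AMT, a subunit of the glycine cleavage system, had the largest difference (0.52, adjusted p = 0.278, limma, and 0.28 without Sh-YAP1 replicate 3) with overlapping groups and at most 1.48 FPKM. Among the folate transporters, 0 of 5 passed, with a median of -0.24. SLC46A1, the proton-coupled folate carrier, was at 3.37, 3.06 and 3.85 FPKM with Sh-NC and at 2.55, 2.50 and 2.80 FPKM with Sh-YAP1, without overlap (log2 difference -0.29, adjusted p = 0.171). The mitochondrial folate carrier SLC25A32 (-0.45, adjusted p = 0.475, and -0.10 without Sh-YAP1 replicate 2 or -0.77 without Sh-YAP1 replicate 3) and the exporter ABCC1 (-0.24, adjusted p = 0.348, and -0.12 without Sh-NC replicate 1) overlapped between the groups.

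Of the genes that use or regulate tetrahydrobiopterin, 3 of 10 could be tested and 0 passed. GCHFR, which binds and regulates GCH1, had 2.10 ± 0.146 FPKM with Sh-NC and 2.66 ± 0.251 FPKM with Sh-YAP1 (SD, n = 3), without overlap (log2 difference 0.24, adjusted p = 0.221, limma). The endothelial nitric oxide synthase NOS3 was at most 1.10 FPKM and overlapped (-0.45, adjusted p = 0.405, and -0.72 without Sh-NC replicate 3). TH, tyrosine hydroxylase, which depends on the cofactor, was at most 0.21 FPKM.

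All 8 tested genes of the molybdenum cofactor list had a lower mean in Sh-YAP1, with a median of -0.12, but each overlapped between the groups and 0 passed (smallest adjusted p = 0.404, limma). The 3 with the largest differences were SUOX, sulfite oxidase (-0.32, adjusted p = 0.507, and -0.04 without Sh-YAP1 replicate 3, at 3.22 FPKM, or -0.57 without Sh-YAP1 replicate 2), and the cofactor synthesis genes GPHN (-0.17, adjusted p = 0.404, and -0.08 without Sh-YAP1 replicate 1) and MOCS1 (-0.17, adjusted p = 0.499, and -0.08 without Sh-NC replicate 2 or -0.30 without Sh-NC replicate 3).

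Of the 8 genes for phosphatase substrates, phosphate and mineral handling, 0 passed, with a median of 0.07. SPP1, osteopontin, was at 0.36, 0.19 and 0.20 FPKM with Sh-NC and at 0.97, 0.87 and 0.61 FPKM with Sh-YAP1. It did not overlap, and its log2 difference of 0.54 had an adjusted p of 0.0782 (limma). Its mean in Sh-NC, 0.25 FPKM, was below the filter of 0.5 FPKM, so that it was analysed through its Sh-YAP1 libraries. PHOSPHO1, a phosphatase of mineralising cells, had 1.05 ± 0.155 and 0.67 ± 0.0854 FPKM (SD, n = 3) and did not overlap either (-0.29, adjusted p = 0.193). SLC20A2, a phosphate transporter, had 13.6 ± 0.880 and 15.5 ± 1.07 FPKM (0.18, adjusted p = 0.284).

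Among 10 tested aldo-keto and carbonyl reductases 0 passed, with a median of -0.04. AKR1C3, a ketosteroid reductase, came nearest to the threshold of all 55 genes. It was at 75.3, 69.1 and 68.8 FPKM with Sh-NC and at 89.0, 88.1 and 94.2 FPKM with Sh-YAP1. The groups did not overlap, and the log2 difference was 0.34 (SE 0.07, adjusted p = 0.0513, limma). The adjusted p was 0.0344 with quantile normalization and 0.0476 with a filter at 1 FPKM. AKR1C1 was at 15.1 FPKM in Sh-NC replicate 1 and between 6.50 and 7.72 FPKM in the other 5 libraries (log2 difference -0.41, adjusted p = 0.409, and -0.09 without that library).

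**Figure D4:**
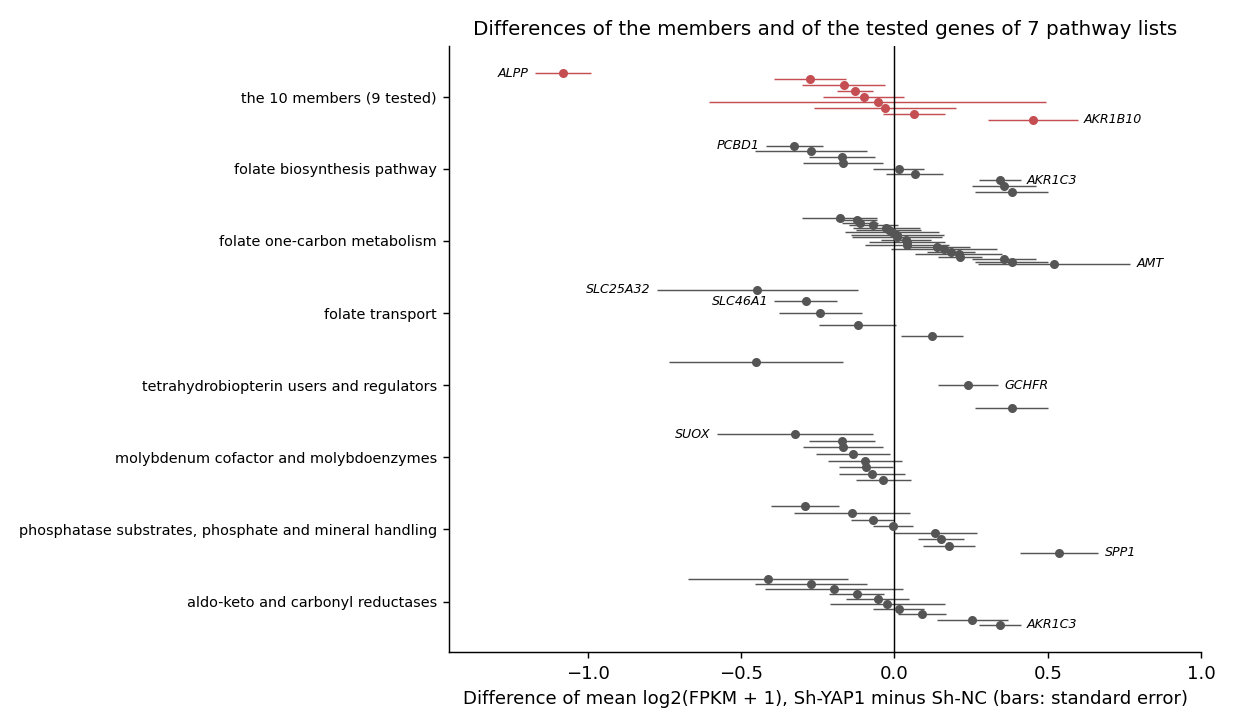
Difference of mean log2(FPKM + 1), Sh-YAP1 minus Sh-NC (horizontal), with its standard error for the 9 members (red) and the tested genes of 7 lists (grey, members left out, a gene in several lists drawn in each). With the pseudocount of 1 used here, the list genes lie between -0.45 and 0.54 and ALPP at -1.08.

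Finally, the genes whose profile over the 6 libraries was nearest to that of ALPP were sought among 13098 genes that averaged 1 FPKM or more. Likeness was the mean absolute difference of log2(FPKM + 1) after each gene was centred on its own mean. The nearest was MIS18A, a gene of centromere assembly, at 0.0482. It was at 9.48, 8.69 and 8.80 FPKM with Sh-NC and at 3.82, 3.89 and 3.11 FPKM with Sh-YAP1, a log2 difference of -1.12 (adjusted p = 0.0073, limma). KISS1, which encodes kisspeptin, followed at 0.076, with 14.9 ± 0.569 and 7.33 ± 0.146 FPKM (SD, n = 3, -0.93, adjusted p = 0.00626). The lysosomal acid lipase gene LIPA (likeness 0.0775, log2 difference -0.99, adjusted p = 0.00411), GPN1 (0.0852, -1.05, adjusted p = 0.00978) and LINC00707 (0.0952, -0.94, adjusted p = 0.0249) came next. LINC00707 missed the threshold without a filter (adjusted p = 0.0624) and in 5 of the 6 fits that left out 1 library (adjusted p between 0.0568 and 0.0893). The same 6 libraries define the profile and the difference, so these genes had to be lower in Sh-YAP1. None is a member of the 7 lists.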

How the data were processed

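The authors deposited FPKM values with 2 decimals for 229420 transcripts per library, with a gene identifier and no transcript name. The submitters' processing notes name Bowtie 0.12.2, HISAT2 2.0 and hg19 without their roles. The quantification tool and the annotation are not given in the sources used here. Depth cannot be recovered from the values, so no counting interval is given. Positions come from GENCODE 29 on GRCh38 and promoter windows from RefSeq (GRCh38.p14). Gene values were sums over the rows of a gene identifier, and 60401 of 60612 identifiers had a symbol. Values were taken as log2(FPKM + 1), genes averaging 0.5 FPKM or more were kept, and Sh-YAP1 was compared with Sh-NC with limma 3.58.1 in R 4.3.3 (lmFit, eBayes with a mean-variance trend, condition only, Benjamini-Hochberg over all genes analysed). The code was tested on simulated data. Python 3.11.15 and Biopython 1.88 served for the rest, the latter for alignment. Members and gene lists were chosen with earlier results of these data known. Other genes were named by a rule: close relatives of members, the 3 genes with the largest absolute difference and any passing gene in each list, and the 5 genes nearest to ALPP in profile. Some genes the rule takes in are not reported here. Named after their values were seen were PCBD1, TH, the overlapping antisense gene, and the neighbours of ALPP. Alternatives covered the pseudocount, scaling, the filter, the trend, the replicate block, each library left out and rows left out.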

Additional observations from a re-analysis of the deposited data

How the results depend on the processing

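ALPP was lower in Sh-YAP1 under 17 of 18 alternatives, but some of these could not change its difference. Leaving out the trend or the filter, raising the filter and adding the replicate block each left it at -1.08 by construction. The log2 difference was between -1.12 and -1.02 with 1 library left out, -1.31 and -1.34 with pseudocounts of 0.1 and 0.01, and 0.22 without its first transcript row (-0.11 when the second Sh-YAP1 library was also left out, an alternative chosen after the data were seen). The count of genes with an adjusted p under 0.05 was 499. It was 232 without a filter, between 78 and 171 with 1 library left out, and 1 with the replicate block (YAP1, with 2779 at an unadjusted p under 0.05). Between the 2 libraries that share a number, deviations correlated at -0.028 (replicate 1), 0.062 (replicate 2) and 0.004 (replicate 3). These low values gave no sign of pairing. With 3 libraries per group they cannot exclude it, since a pairing limited to some genes need not show in them. Whether the libraries were paired was therefore not settled. Under the block MIS18A, KISS1, LIPA and GPN1 had an adjusted p of 0.0996 and LINC00707 of 0.138 (limma). LINC00707 also missed the threshold without a filter and in 5 of the 6 fits without 1 library. Of the 55 pathway genes, 1 passed (AKR1C3) with quantile normalization and 1 with the filter raised to 1 FPKM, and 0 in the other alternatives, the block included. With the block or with 1 library left out few genes passed at all, so the 0 in those fits says little about the pathways. Leaving out the row that changed most, added for the other members after the data were seen, turned QDPR to 0.02, GCH1 to 0.30, FPGS to 0.12, MOCS2 to 0.08 and PTS to -0.01, and moved GGH to -0.57 and SPR to -0.34. The row left out held 99.6% of SPR, so its value describes a remainder of 0.293 FPKM with Sh-NC and 0.02 FPKM with Sh-YAP1. For GGH the row left out held 77.9% of the gene. With 1 library left out, GCH1 (-0.23 to 0.22), FPGS (-0.19 to 0.02), PTS (-0.03 to 0.14) and MOCS2 (-0.56 to 0.42) changed sign, and GGH (-0.27 to -0.08), QDPR (-0.36 to -0.16), SPR (-0.14 to -0.12) and AKR1B10 (0.32 to 0.57) did not. AKR1B1 turned to -0.0028 with median centring, and with 1 library left out it was between -0.05 (without Sh-NC replicate 3) and 0.08, also turning without Sh-YAP1 replicate 3 (-0.02). Without depth, no limit of detection could be set for genes listed at 0 FPKM.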
